A study of Mus musculus with 18 samples.

Results

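A set of 7 genes of the megalin-cubilin uptake pathway was followed in mouse kidney RNA: Lrp2, Cubn, Amn, Dab2, Clcn5, Ocrl, and Lrpap1. They were chosen by name for their place in this pathway, and they are 7 of the 78239 genes listed per library. The libraries came from 18 wild-type outbred CD-1 mice aged 6 wk, 1 library per mouse, and poly(A) RNA from a piece of the left kidney was sequenced without strand information. Dams ate a low protein (LP, 8% protein) or normal protein (NP, 18% protein) diet through gestation and lactation, and every offspring ate the 18% diet from weaning. Groups held 5 NP and 5 LP males, and 3 NP and 5 LP females. All of the mice, NP controls included, had also been injected with cationic ferritin, an iron-storage protein used as a contrast agent for imaging. Males were collected 1.5 h and females 24 h after the last injection, so sex and time since injection cannot be told apart here. The adult mice of the study came from a few litters, and which of these mice shared a litter is not given in the sources used here. The p-values therefore measure the spread between these mice.

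Filtered proteins are recovered from the glomerular filtrate by cells of the proximal tubule, the first segment of the nephron after the glomerulus. Megalin (Lrp2) and cubilin (Cubn) are very large receptors of the brush border that bind albumin, vitamin carriers, and many other ligands. Cubilin has no membrane-spanning part and reaches the cell surface together with amnionless (Amn). The receptor-associated protein (Lrpap1) is a chaperone that keeps newly made megalin free of ligand in the endoplasmic reticulum, and Dab2 links the tail of megalin to clathrin. Clcn5 encodes the chloride-proton exchanger ClC-5 of endosomes, whose loss causes Dent disease, and Ocrl encodes a phosphoinositide phosphatase, whose loss causes Lowe syndrome. Loss of any of several of these proteins leads to protein in the urine.

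On GRCm39, Lrp2 lies at chr2:69254682-69416409 on the minus strand and Cubn at chr2:13281149-13496624 on the minus strand, on the same chromosome but far apart. Amn lies at chr12:111237524-111244001 on the plus strand, Dab2 at chr15:6329269-6470196 on the plus strand, and Lrpap1 at chr5:35248837-35263892 on the minus strand. Clcn5 (chrX:7019726-7185661, minus strand) and Ocrl (chrX:47001264-47055310, plus strand) are both on the X chromosome. The canonical transcripts differ widely in length, from 15462 bases for Lrp2 and 11262 for Cubn to 2995 for Lrpap1 and 2847 for Amn. GC content ran from 42.52% in Ocrl to 53.85% in Lrpap1 and 58.35% in Amn. A lncRNA on the opposite strand shares 737 exonic bases with Cubn and another shares 590 with Ocrl, and a pseudogene shares 211 with Dab2, at most 4.935% of the member's exonic bases. Reads of such stretches cannot be assigned by strand here.

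The sequences just upstream of Lrp2, Cubn, and Amn are shown because these genes encode the receptors and the partner of cubilin, and because Lrp2 and Cubn varied together across the libraries while Amn did not. They are from RefSeq promoter windows of GRCm38.p6, each matched once and exactly to GRCm39, and cut to the bases upstream of the annotated gene start. Coordinates are chr2:69416410-69416623 (minus strand), chr2:13496688-13496937 (minus strand), and chr12:111237280-111237523 (plus strand), and capitals mark an E-box.
Lrp2: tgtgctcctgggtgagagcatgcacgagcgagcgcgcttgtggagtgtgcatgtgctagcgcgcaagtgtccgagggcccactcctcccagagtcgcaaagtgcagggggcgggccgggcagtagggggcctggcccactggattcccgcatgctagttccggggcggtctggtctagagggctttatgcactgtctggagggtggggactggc
Cubn: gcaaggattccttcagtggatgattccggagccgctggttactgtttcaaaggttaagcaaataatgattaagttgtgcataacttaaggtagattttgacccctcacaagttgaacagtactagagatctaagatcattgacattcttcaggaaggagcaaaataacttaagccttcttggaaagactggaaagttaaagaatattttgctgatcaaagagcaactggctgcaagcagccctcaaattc
Amn: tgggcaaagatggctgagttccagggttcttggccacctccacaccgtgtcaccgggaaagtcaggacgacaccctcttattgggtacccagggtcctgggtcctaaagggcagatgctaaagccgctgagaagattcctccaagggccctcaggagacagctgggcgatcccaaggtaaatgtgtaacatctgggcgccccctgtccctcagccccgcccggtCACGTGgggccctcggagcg
The Lrp2 stretch was 65.9% GC and held 13 CpG, and the Amn stretch was 61.5% GC with 11 CpG. The Cubn stretch was only 39.6% GC and held 2 CpG. Over 32851 promoter windows of 250 bases, the medians were 52.4% GC and 6 CpG, so the 2 receptor genes lie on opposite sides of the median. Both strands were searched for the glucocorticoid response element (AGAACA and TGTTCT with any 3 bases between them) and its half-site AGAACA, which the full element contains. They were also searched for the interferon element (GAAA, any 2 bases, GAAA) and the PPAR element (AGGTCA, any 1 base, AGGTCA). The E-box CACGTG and the HNF1 half-site GTTAAT were sought too. Lrp2 and Cubn windows held none of these letters. The E-box of Amn lies 26 to 21 bases before the RefSeq start, and 6.02% of all windows hold one. The half-site AGAACA, found in 16.1% of windows, occurred in one Clcn5 window. The half-site GTTAAT, found in 6.43% of windows, occurred in a Dab2 window. These are matches of letters, and binding was not measured.

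Reads counted on genes numbered 14050486 to 23562411 per library. Proximal tubule markers were abundant in every library, with 16 of 16 detected and a summed level of 20560 to 42680 CPM, counts scaled to a common library total with the TMM factors of edgeR. The 3 libraries of LP female 1, LP female 2, and NP female 3 split off first when libraries were clustered on all 12665 genes with at least 10 counts in each. Their interferon-stimulated genes averaged 3.04 to 3.41 on the log2(CPM + 1) scale, against 5.96 to 7.49 in the other 5 females, and their glucocorticoid-responsive genes averaged 4.17 to 5.08 against 6.69 to 7.25. Both lists had been chosen after earlier results of these libraries. These 3 mice keep their diet group below, and female diet, interaction, and sex results of the receptors and list counts are also given without them.

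All 7 genes were counted in every library, with at least 217 counts (Ocrl) and up to 92625 (Lrp2), so none was lost to the filter on low counts. Levels of different genes were compared per kilobase of the canonical transcript. Averaged over 18 libraries, Lrpap1 stood highest at 221 CPM per kb and Lrp2 next at 151 ± 48.8 (SD). Dab2 followed at 108 ± 22.2, Amn at 76.7 ± 16.1, and Cubn at 37.0 ± 9.92 CPM per kb. Clcn5 at 15.5 ± 4.65 and Ocrl at 3.48 were the lowest. Lrp2 and Dab2 were neighbours whose values overlapped widely, from 70.5 to 242 for Lrp2 and from 67.7 to 154 for Dab2, and the ranges of Dab2 and Amn overlapped too. The order depended on which length was used. Over all annotated exons, Lrp2 was first at 140 CPM per kb, Lrpap1 second at 115, and Amn at 73.1 was above Dab2 at 46.0.

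**Figure D1:**
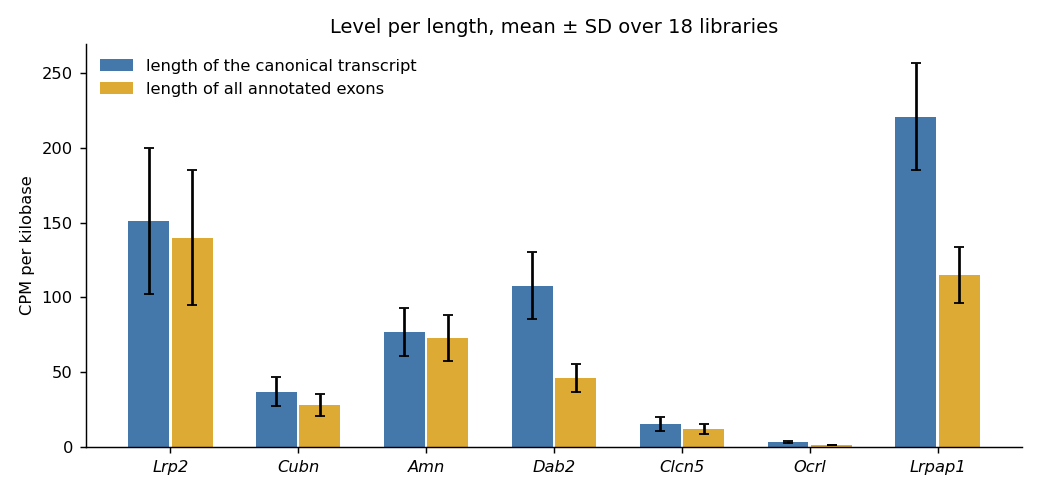
Bars give the mean level of each gene in CPM per kilobase over 18 libraries, and whiskers give the SD, for 2 definitions of gene length. Lrpap1 is highest with the canonical transcript (221) and Lrp2 with all annotated exons (140), and Ocrl is lowest with both.

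The maternal diet comparison asks whether protein restriction before weaning left the uptake genes at another level at 6 wk. In males it did not move any of the 7 past the threshold. In NP males, Lrp2 was at 2349, 1907, 2121, 2599, and 1974 CPM, and in LP males at 2653, 1722, 2194, 2415, and 1948 CPM. The ranges coincide, and the log2 fold change of LP over NP was -0.00 (SE 0.13). Cubn was at 387, 326, 450, 430, and 351 CPM in NP males and at 450, 379, 491, 455, and 416 CPM in LP males. LP values sat somewhat higher but the groups overlapped, a difference of 0.17 on the log2 scale (SE 0.11, adjusted p = 1.00 by edgeR's quasi-likelihood test with Benjamini-Hochberg adjustment).

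The other members were as close in males. Amn, the membrane anchor of cubilin, had a log2 fold change of 0.12 (SE 0.15). NP males spread over 178 to 292 CPM and LP males over 207 to 282 CPM. The log2 fold change was -0.09 (SE 0.15) for Dab2, the clathrin adaptor, and -0.07 (SE 0.15) for the endosomal exchanger Clcn5. It was 0.05 (SE 0.16) for the phosphatase Ocrl and -0.03 (SE 0.12) for the chaperone Lrpap1. None of the 7 genes had an adjusted p under 0.05, where 0.0379% of 13181 genes did, and none had ranges that separated LP from NP males, where 0.647% of 12665 genes did. Those calls over all genes numbered 5 and depended on the fit, at 2 to 6 without any 1 library, 1 with all 4 groups in 1 model, 9 with no filter on low counts, 2 with the replicate block, and 19 with DESeq2. For scale, counts were simulated with the spread of each gene over all 18 libraries, females included, and filtered on the mean count. Of 200 genes changed 2-fold among 12665 genes, 65.0% were recovered in the male comparison, so a smaller change could be missed. That share is over genes of every spread, while the SE of the members in males ran from 0.11 to 0.16.

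In females the receptors spread over a much wider range, mostly within the LP group. Lrp2 was at 2353, 2800, and 1739 CPM in NP females. It was at 1207, 1091, 3618, 3592, and 3737 CPM in LP females. LP females thus held both the lowest and the highest Lrp2 levels of the study, and LP exceeded NP by 0.21 on the log2 scale (SE 0.46, adjusted p = 0.950 by edgeR). Cubn was at 394, 454, and 279 CPM in NP females. In LP females it was at 256, 208, 660, 549, and 564 CPM. The same mice were low and high for both receptors, and for Cubn LP exceeded NP by 0.26 on that scale (SE 0.40, adjusted p = 0.932 by edgeR). The direction turned for both receptors with the replicate number as a block (-0.46 for Lrp2 and -0.20 for Cubn) and with the proximal tubule marker level as a covariate (-0.16 and -0.084).

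Dab2 gave the largest diet difference among the members in females. It was at 316, 475, and 319 CPM in NP females and at 486, 472, 572, 457, and 504 CPM in LP females. One NP female lay within the LP range and the other NP females lay below it. LP exceeded NP by 0.43 on the log2 scale (SE 0.19), at an unadjusted p of 0.0456 and an adjusted p of 0.886 by edgeR. Amn was -0.21 (SE 0.19), Clcn5 0.24 (SE 0.24), Ocrl 0.16 (SE 0.14), and Lrpap1 -0.03 (SE 0.14) on the log2 scale. None of these passed either. No gene did (0% of 13510 genes; 564 had an unadjusted p under 0.05, and DESeq2 called 9). Without NP female 2, 2638 genes had an unadjusted p under 0.05 and 2 were called, and without LP female 3 the former count was 346. In the same kind of simulation, 41.5% of 200 genes changed 2-fold were recovered in the female comparison. Ranges of LP and NP females overlapped for all 7 genes, where 2.92% of genes had ranges apart.

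Leaving out LP female 1, LP female 2, and NP female 3 left 3 LP and 2 NP females. The SE of the diet difference then fell to 0.18 for Lrp2, with a log2 fold change of 0.51, and to 0.17 for Cubn, with 0.49. Unadjusted p-values were 0.0259 and 0.0226, and the adjusted p was 0.972 for both by edgeR. In that fit 630 of 14183 genes had an unadjusted p under 0.05. The libraries left out held the lowest Lrp2 and Cubn of each female diet group. The SE and the differences here were thus in part fixed by leaving them out. With a correction for gene length and GC added, a step chosen after seeing the data, the log2 fold changes were 0.38 and 0.36 (adjusted p = 0.781 and 0.766).

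An interaction test asked whether males and females differed in their diet difference. None of the 7 genes passed, beside 0.0158% of 12665 genes. Dab2 was the nearest, with a difference of 0.52 on the log2 scale (SE 0.24, unadjusted p = 0.0426, adjusted p = 0.977 by edgeR). For Amn it was -0.34 (SE 0.26), for Clcn5 0.30 (SE 0.27), for Lrp2 0.21 (SE 0.45), for Ocrl 0.10 (SE 0.22), for Cubn 0.08 (SE 0.38), and for Lrpap1 -0.00 (SE 0.18). Without the 3 females that stand apart, the difference was 0.50 for Lrp2 (SE 0.22, unadjusted p = 0.0371), 0.30 for Cubn (SE 0.19), and 0.46 for Dab2 (SE 0.28), with an adjusted p of 0.999 for each by edgeR. In that fit 437 of 12949 genes had an unadjusted p under 0.05, and the receptor values were in part fixed by leaving these libraries out. With all libraries and the replicate block, the difference turned below 0 for both receptors (-0.052 for Lrp2 and -0.13 for Cubn).

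**Figure D2:**
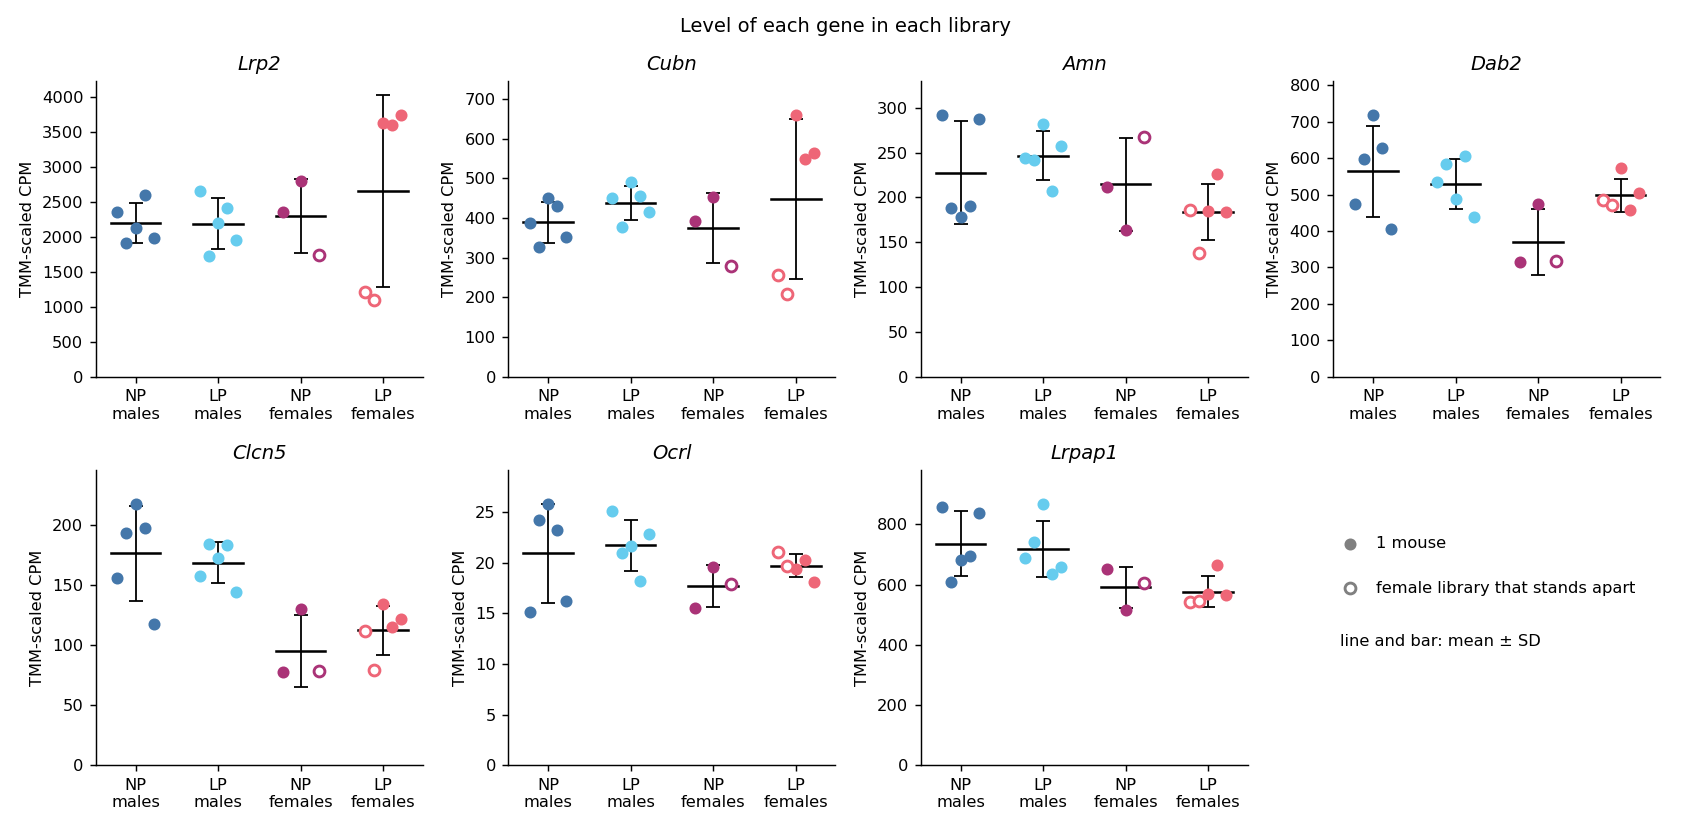
Each point is the TMM-scaled CPM of a gene in 1 mouse, by group, with open points for the 3 female libraries that stand apart, and lines with bars give the mean ± SD. Lrp2 and Cubn spread most in LP females (1091 to 3737 CPM for Lrp2), and Clcn5 is lower in females of both diets than in most males.

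The wide spread of the receptors in females followed the 3 libraries that stand apart. Lrp2 was at 1091 to 1739 CPM in these 3 mice and at 2353 to 3737 CPM in the other 5 females, a mean difference of -1.26 on the log2 scale (2.40-fold). Cubn was at 208 to 279 CPM against 394 to 660 CPM, a difference of -1.06 (2.09-fold). For both receptors the ranges did not overlap. Of all 12665 genes, 12.3% were likewise lower in all 3 of these libraries and 12% were higher, and 3.39% differed by as much as Lrp2 or more. The libraries were set apart on all genes, the 7 members among them, so these values are a description and were not tested.

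The remaining members did not divide the females in this way. Amn differed by -0.02 on the log2 scale and Lrpap1 by -0.07, and both overlapped. Dab2 differed by -0.13, Clcn5 by -0.35, and Ocrl by 0.07, also with overlap. Amn stood at 0.660 to 0.960 of the CPM of Cubn in the 3 mice and at 0.281 to 0.538 in the other 5.

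In males Lrp2 varied by 14.2% (coefficient of variation) and Cubn by 12.5%, against 43.3% and 39.0% in females. Lrp2 in the 3 low females overlapped with the lower end of the males (1722 to 2653 CPM) through NP female 3 only. Of the other 5 females, 4 were above every male for Lrp2. Collection at 1.5 h in males and at 24 h in females runs along this difference and cannot be told apart from sex.

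Cell type markers and library properties were measured beside the low receptor levels, and, beyond the values given, their part in them was not tested. The proximal tubule markers did not separate the 3 mice: 0 of 16 were lower in all 3 and the median difference was -0.09 on the log2 scale. Podocyte markers had a median difference of -0.63 with 2 of 6 lower in all 3. Thick ascending limb markers were at -0.39, with 2 of 7 lower and 1 higher. Endothelium was at -0.52, distal convoluted tubule at -0.31, and intercalated cells at -0.15 (1 of 6 lower and 1 higher). Principal cells were at 0.32 (1 of 7 lower), and macrophages and leukocytes at 0.40 (2 of 7 higher and 1 lower). Of all genes, 12.3% were lower in all 3 and 12% higher. The interferon list was lower for 7 of 7 measured genes, and the glucocorticoid list for 6 of 7. Adipocyte markers summed to 8.48 to 163 CPM in the 3 mice, highest in NP female 3. In the other 5 females they summed to 6.64 to 92.1 CPM. Red blood cell markers summed to 26.4 to 114 CPM in the 3 mice against 18.2 to 160 CPM. In whole kidney RNA, fewer cells of a type and less RNA per cell cannot be told apart. Long genes were counted relatively less in these libraries, with slopes of -0.67 to -0.15 (log2 per 10-fold gene length), though the other 5 females overlapped with them at -0.36 to 0.45. After each library was corrected for gene length and GC content, the difference was -0.90 for Lrp2 and -0.74 for Cubn, and the ranges met, at 10.21 to 11.23 against 11.11 to 11.84 on the log2 scale for Lrp2.

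Across libraries the 7 genes varied in sets. With the 4 group means removed, log2 levels of Lrp2 and Cubn had a Pearson correlation of 0.958 over 18 libraries and of 0.679 over the 10 males. The ratio of Cubn to Lrp2 CPM stayed between 0.151 and 0.224 in every library, while Lrp2 itself spanned 3.43-fold. Amn did not follow its partner Cubn, with a correlation of 0.112 (-0.210 in males). Amn instead varied with the chaperone Lrpap1, at 0.789 (0.848 in males). Dab2 and Clcn5 varied together, at 0.878 (0.944 in males). Amn and Dab2 varied oppositely, at -0.757 (-0.901 in males). All of these correlations are descriptions over libraries that share depth scaling, RNA quality, and base composition effects.

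The sets of Amn with Lrpap1 and of Dab2 with Clcn5 ran along several properties of the libraries. The slope of a library on gene length ran from -0.67 in NP female 3 to 0.45 in NP female 2. It correlated at -0.675 with Amn and at -0.624 with Lrpap1, both short and rich in GC, and at 0.829 with Dab2 and 0.815 with Clcn5 (in males, -0.934, -0.828, 0.847, and 0.793). The slope of a library on GC content ran along the same sets, at 0.709 with Amn, 0.542 with Lrpap1, -0.882 with Dab2, and -0.790 with Clcn5. So did the proximal tubule marker level, at -0.375, -0.456, 0.805, and 0.803, and the part of each was not tested. Lrp2 and Cubn, the longest transcripts, were at 0.543 and 0.560. After the correction for length and GC, Lrp2 and Cubn still varied together (0.941, and 0.775 in males). Amn then varied with Cubn at 0.637 and with Lrp2 at 0.641 (0.713 and 0.731 in males), Amn with Lrpap1 at 0.736, Dab2 with Clcn5 at 0.653, and Amn with Dab2 at -0.578. The association of Amn with its receptor thus depended on this correction. The integrity of each RNA sample is not given in the sources used here.

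**Figure D3:**
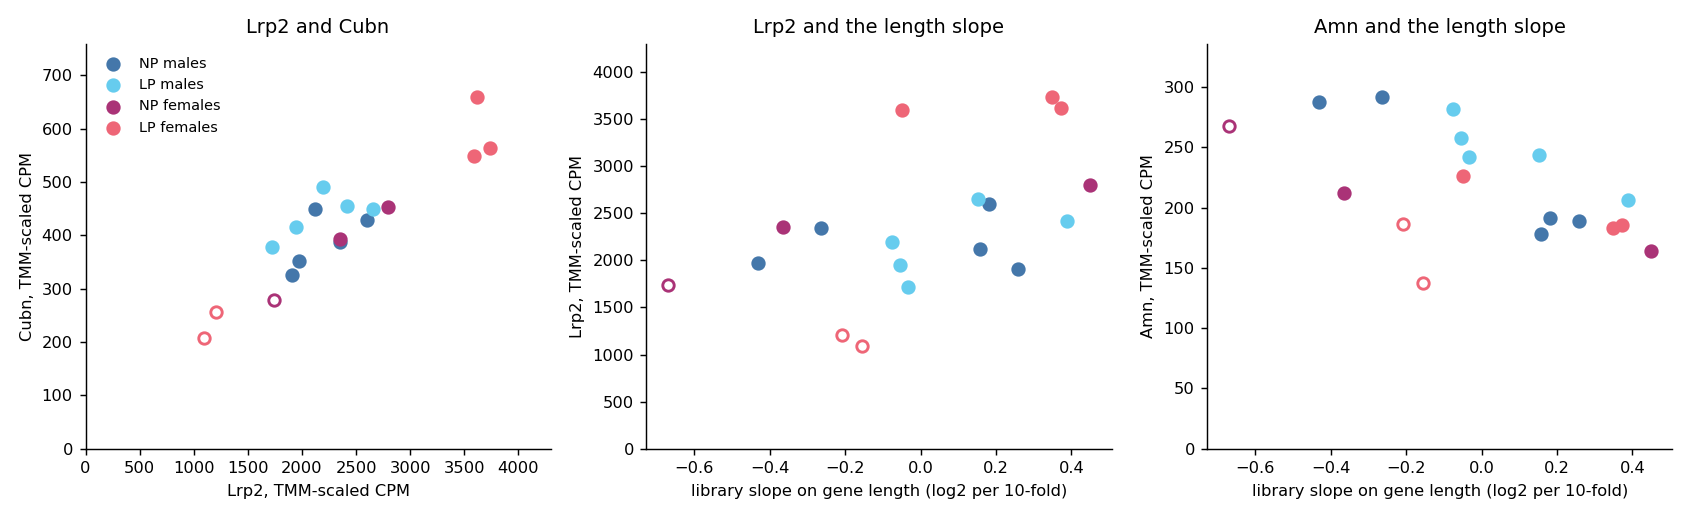
Each point is 1 library, with open points for the 3 females that stand apart: Cubn against Lrp2 (both in TMM-scaled CPM), and Lrp2 or Amn (CPM) against the slope of the library on gene length (log2 per 10-fold length). Cubn follows Lrp2 in all groups, Amn falls as the slope rises, and the 2 lowest Lrp2 values (1091 and 1207 CPM) lie at slopes of -0.15 and -0.21.

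Among 9179 genes with a mean of at least 10 CPM, the patterns most like that of Lrp2 over 18 libraries were those of Dync1h1 (the dynein heavy chain, 0.958), Cubn (0.958), and Ganab (a glucosidase subunit of the endoplasmic reticulum, 0.952). For Cubn they were Ganab (0.979), Lrp2 (0.958), and Cers6 (a ceramide synthase, 0.955). For Amn they included Set (0.921) and Gm49172 (0.911). In the 10 males alone these correlations ran lower for the receptors, at 0.709 for Dync1h1 and 0.636 for Ganab with Lrp2, and stayed at 0.872 for Set and 0.894 for Gm49172 with Amn.

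Between the sexes, Clcn5, Lrpap1, and Dab2 passed the test and were higher in males, and no member passed as lower. These 3 of 7 stand beside 38.7% of all 12665 genes, a similar share. Clcn5 was at 156, 194, 218, 198, and 118 CPM in NP males and at 158, 185, 173, 183, and 145 CPM in LP males. In females it was at 77.4, 130, and 78.6 CPM (NP) and at 112, 79.5, 135, 115, and 122 CPM (LP). Only NP male 5 lay within the female range. Clcn5 was 0.74 higher on the log2 scale in males (SE 0.14, adjusted p = 0.000476 by edgeR) and passed without any 1 of the 18 libraries. It was also the only member past the 1.5-fold threshold that the study used.

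Lrpap1 ran from 609 to 868 CPM in males, with a median of 690, and from 515 to 664 CPM in females, with a median of 566. The ranges overlapped at 609 to 664 CPM. The difference was 0.32 on the log2 scale (SE 0.09, adjusted p = 0.0104), and it too passed without any 1 library. Dab2 ran from 405 to 718 CPM in males, with a median of 559, and from 316 to 572 CPM in females, with a median of 474. The difference of 0.35 (SE 0.12, adjusted p = 0.0278 by edgeR) was lost when LP male 2, LP male 4, LP female 4, NP male 3, NP male 4, NP female 1, or NP female 3 was left out, with adjusted p between 0.0507 and 0.0918. For Dab2 it was 0.61 within NP mice (adjusted p = 0.0935) and 0.09 within LP mice (adjusted p = 0.612), both by edgeR.

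Amn (0.25, SE 0.13, adjusted p = 0.135 by edgeR), Ocrl (0.19, SE 0.11, 0.183), Lrp2 (-0.17, SE 0.22, 0.568), and Cubn (0.01, SE 0.19, 0.975) did not pass. Amn ran from 178 to 292 CPM in males and from 138 to 268 CPM in females. Ocrl, the least abundant, ran from 15.2 to 25.8 and from 15.5 to 21.1 CPM. Over all genes, 2394 passed as higher and 2506 as lower in males. With the 1.5-fold threshold added, 1 of 7 passed beside 18.7% of genes. No member had ranges that separated the sexes, where 8.4% of genes did.

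**Figure D4:**
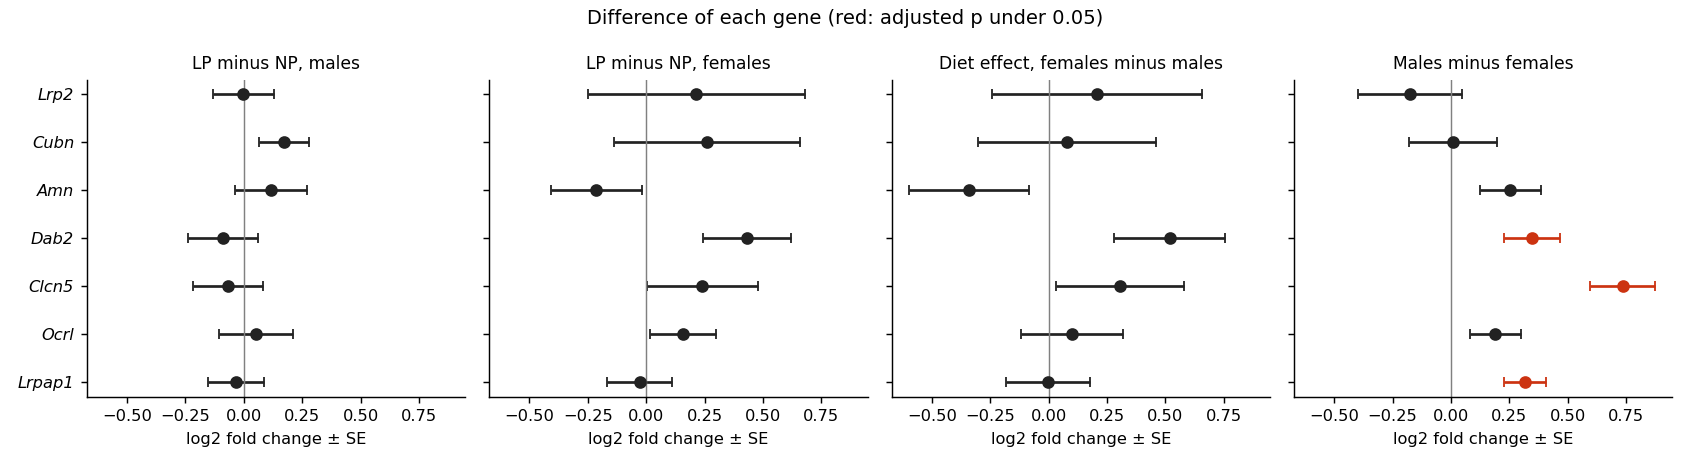
Points give the log2 fold change of each gene and whiskers the SE, for LP over NP in males, LP over NP in females, the difference of these, and males over females, with red for an adjusted p under 0.05. Red points appear only for Clcn5 (0.74), Dab2 (0.35), and Lrpap1 (0.32) in the comparison of the sexes.

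Other measured properties differed between the sexes too. Proximal tubule markers summed to 33650 to 42680 CPM in males and to 20560 to 29880 CPM in females, with 6 of 16 higher and 3 lower in males. Their mean level, which weights each gene equally, overlapped between the sexes, at 9.80 to 10.42 in males and 9.29 to 10.19 in females on the log2(CPM + 1) scale. Markers of later segments and of podocytes were lower in males, with 4 of 7 for the thick ascending limb, 4 of 4 for the distal convoluted tubule, 6 of 6 for intercalated cells, and 6 of 6 for podocytes. Beside these counts, 38.7% of all 12665 genes passed, 2394 higher and 2506 lower in males. With the proximal tubule marker level as a covariate, Clcn5 was 0.47 higher in males (adjusted p = 0.00282) and Lrpap1 0.41 (adjusted p = 0.00407), and Dab2 was 0.11 (adjusted p = 0.384 by edgeR), beside 35.9% of genes. Beyond these values, their part in the sex difference was not tested.

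The receptors were the members most altered by leaving out the 3 females that stand apart. Against the remaining 5 females, Lrp2 was 0.50 lower in males on the log2 scale (SE 0.11, adjusted p = 0.00204) and Cubn 0.29 lower (SE 0.09, adjusted p = 0.0235). Clcn5 was 0.59 higher (adjusted p = 0.00516), while Lrpap1 (0.29, adjusted p = 0.0508) and Dab2 (0.27, adjusted p = 0.144) no longer passed by edgeR. That comparison called 37.7% of 12949 genes. Because the 3 libraries left out were those with the lowest Lrp2 and Cubn among females, this change was in part fixed by leaving them out. With the correction for length and GC added, Lrp2 was 0.34 lower in males (adjusted p = 0.0314) and Cubn 0.18 lower (adjusted p = 0.218), and Amn, Dab2, Clcn5, and Lrpap1 were higher, at 0.37, 0.31, 0.70, and 0.37, beside 43.7% of genes. That same correction over all 18 libraries called 4 members, Amn (0.37, adjusted p = 0.0111) in addition to Clcn5, Dab2, and Lrpap1, beside 43.2% of genes. Within NP mice 1 member passed (Clcn5, 0.90) beside 15.1% of genes, and within LP mice Clcn5 (0.59) and Amn (0.43) passed beside 18.9% of genes.

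**Figure D5:**
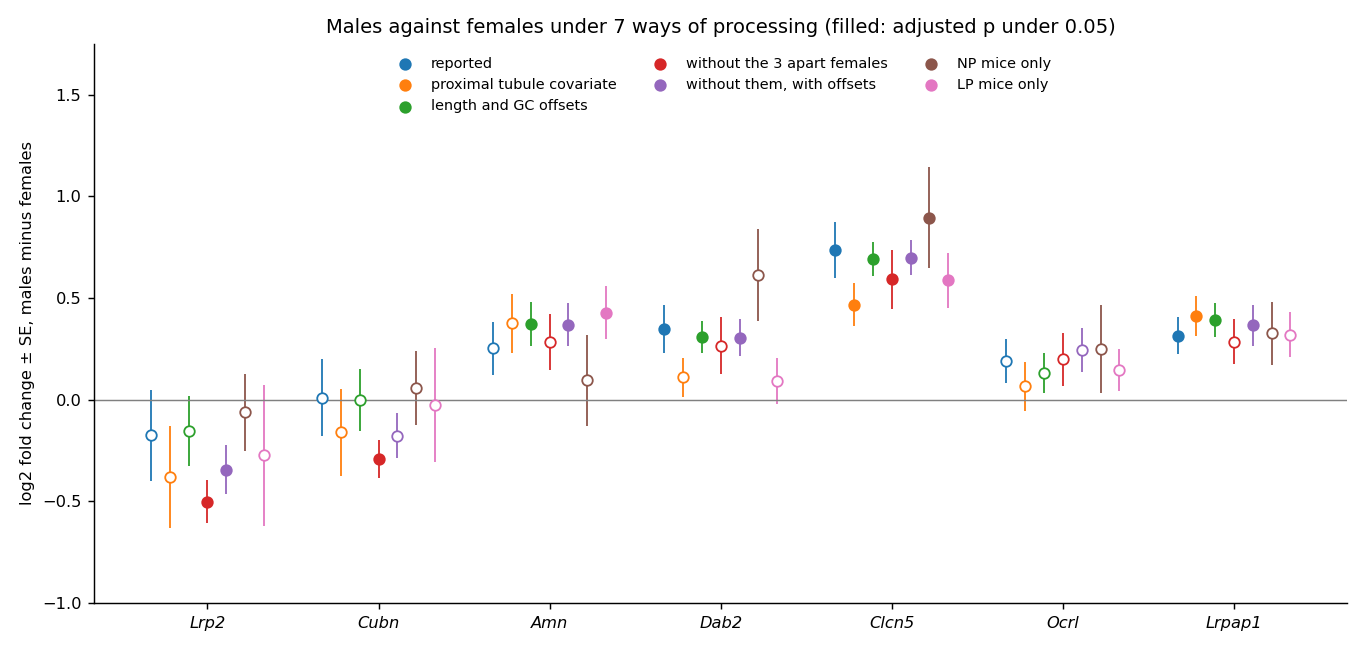
Points give the log2 fold change of males over females for each gene and whiskers the SE, under 7 ways of processing, with filled points for an adjusted p under 0.05. Clcn5 is filled under all 7, and when the 3 females that stand apart are left out, Lrp2 goes from -0.17 to -0.50 and Cubn from 0.01 to -0.29.

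The partners of these genes along the uptake route were followed through 7 lists of 81 genes, all tested. In the diet comparisons no gene of any list passed, in males, in females, or in the interaction, nor in the latter comparisons without the 3 females that stand apart, an alternative for the lists chosen after seeing the data. In males the medians of the lists ran from -0.02 to 0.02 on the log2 scale, beside -0.00 over all genes. The clathrin coat and adaptor list ran from Numb (-0.25) and Ap2m1 (-0.10) to Ap2a2 (0.07) and Ap2b1 (0.08). The early and recycling endosome list ran from Rab38 (-0.14) and Ehd1 (-0.06) to Rab11fip3 (0.16) and Appl1 (0.32). Acidification genes, which include subunits of the proton pump, ran from Atp6v1h (-0.09) and Atp6v0a1 (-0.09) to Atp6v1b2 (0.04) and Atp6ap2 (0.06). Phosphoinositide enzymes, the class of Ocrl, ran from Synj1 (-0.13) and Pi4ka (-0.10) to Pik3r4 (0.04) and Inpp5k (0.10). The medians of the 7 lists lay on both sides of 0. Lysosomal genes ran from Ctsh (-0.14) and Ctns (-0.09) to Ctsb (0.07) and Ctsl (0.23). Other uptake receptors and partners ran from Havcr1 (-0.39) and Tfrc (-0.22) to Fcgrt (0.15) and Lrp1 (0.17), and transcription factors of the proximal tubule from Pparg (-0.44) and Ppara (-0.19) to Rxra (0.07) and Cebpb (0.36).

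In females the medians ran from 0.00 for the other receptors to 0.23 for the phosphoinositide enzymes, beside -0.01 over all genes. The extremes were Ap2s1 (-0.54), Gipc1 (-0.18), Cltc (0.22), and Ap2a1 (0.25) among clathrin genes, and Rab38 (-0.33), Rab4a (-0.20), Snx5 (0.41), and Vps35 (0.42) among endosome genes. Snx5 and Vps35 take part in retrieving receptors from endosomes. Acidification genes ran from Atp6v0a1 (-0.13) and Atp6v0d1 (-0.05) to Atp6v1b2 (0.30) and Atp6v1a (0.31), and phosphoinositide enzymes from Inpp5k (-0.15) and Pik3r4 (-0.02) to Pip5k1c (0.30) and Pi4ka (0.31). Lysosomal genes ran from Ctsd (-0.35) and Tfeb (-0.34) to Lamp1 (0.30) and Lgmn (0.30). Among the other receptors and partners the ends were Fcgrt (-0.39), Scarb2 (-0.39), Slc9a3 (0.34), and Pdzk1 (0.47), and among the transcription factors Pparg (-0.55), Maf (-0.17), and Ppara (0.82). Every one of these had an adjusted p of 0.886 or more by edgeR.

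Between the sexes each list had more genes higher than lower in males, beside a median of -0.05 over all genes, of which 38.7% passed (2394 higher and 2506 lower). Acidification genes, the list nearest in role to Clcn5, had 9 of 12 higher and 0 lower, with a median of 0.34. Clcn3, a relative of Clcn5, was 0.51 higher and the proton pump subunit Atp6v0a2 was 0.53 higher, while Atp6v1e1 (0.00) and Atp6ap2 (-0.14) did not pass. In the early and recycling endosome list, 7 of 14 were higher and 1 was lower (median 0.21), from Appl1 (-0.23) and Rab4a (-0.11) to Rab11fip3 (0.53) and Rab38 (0.79). The clathrin list had 4 of 14 higher and 0 lower (median 0.13), a smaller share than the 38.7% of all genes, and the 4 were subunits of the adaptor AP-2, Ap2a1 (0.39), Ap2a2 (0.33), and Ap2m1 (0.32), and the dynamin Dnm2 (0.23).

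Phosphoinositide enzymes had 3 of 8 called, a share near that of all genes, all higher, Pi4ka (1.34), Inpp5b (0.46), a close relative of Ocrl, and Synj1 (0.44). Lysosomal genes had 5 of 11 higher and 0 lower, among them Ctsh (0.33), Lamp1 (0.33), and Lamp2 (0.31). Among other uptake receptors and partners, Tfrc (1.10), Folr1 (0.38), Tcn2 (0.29), and Pdzk1 (0.26) were higher, and Scarb1 (-0.50) and Havcr1 (-2.20) were lower, of 12. Folr1 and Tcn2 handle folate and vitamin B12. Of 10 transcription factors, 3 were higher, among them Hnf4a (0.34) and Rxra (0.28), and Nfe2l2 (-0.46) was lower. Without the 3 females that stand apart, where 37.7% of all genes passed, the acidification list had 9 higher and 1 lower, the endosome list 7 and 1, and the clathrin list 5 and 0. The phosphoinositide list then had 2 higher and 2 lower, and of its 3 calls above only Pi4ka (1.20) remained. The lysosomal list had 4 higher and 2 lower, the lower ones being Ctsl (-0.58) and Lgmn (-0.31), the other receptors and partners 3 and 2 (Havcr1 -2.85), and the transcription factors 3 and 1. The same difference in nephron segment markers and in time since injection lies under these counts.

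The partner genes were also read in the 3 females that stand apart. The clathrin heavy chain Cltc was at 223 to 281 CPM in these mice against 295 to 492 CPM in the other 5 females (-0.71 on the log2 scale), and the motor Myo6 at 256 to 282 against 323 to 440 CPM (-0.52). In all, 3 of 14 clathrin genes were lower in all 3 mice, 4 of 12 acidification genes, and 0 of 14 early endosome genes. Of 12 other uptake receptors and partners 3 were lower in all 3 mice. Havcr1 (Kim-1, a phagocytic receptor made by injured proximal tubule cells) was at 1.61 to 5.31 CPM in these mice against 97.4 to 316 CPM in the other 5 females, a difference of -5.21 on the log2 scale. The lysosomal membrane protein Scarb2 was at 31.8 to 34.3 against 52.4 to 85.7 CPM, and Tcn2, the vitamin B12 carrier, at 1441 to 1626 against 1884 to 2357 CPM. These counts are a description, beside 12.3% of all genes.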

How the data were processed

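The deposited values are raw read counts for each gene. To make them, the authors trimmed adapters, discarded low-quality reads, aligned them to GRCm39 with STAR, and counted them against GENCODE vM36. The unstranded column was taken because the libraries were non-directional, and rows of reads not assigned to one gene (28.6% to 36.1% per library) were left out. Symbols, lengths, and GC content came from GENCODE vM39 by gene identifier (78168 of 78239 matched).

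A minimum of 10 counts in each library of a comparison was required. Tests used edgeR 4.0.16 under R 4.3.3 (quasi-likelihood), TMM normalization, and Benjamini-Hochberg adjustment over all tested genes. A gene passed at an adjusted p under 0.05. Groups came from the sample labels. SE is the log2 fold change over the square root of F. CPM used TMM-scaled totals. The fit was checked on simulated counts. DESeq2 1.42.0 was an alternative. In the tests, length and GC were corrected with per-library natural splines (4 degrees of freedom each). Corrected levels, their ranges, and corrected correlations instead used a straight-line fit per library on log10 length and GC.

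The members and lists were chosen with earlier results of these data known. Named are the 7 members, list genes that passed (where none or more than 6 did, the 2 largest and 2 smallest changes; for the interaction, counts only), and the 3 genes most correlated with Lrp2, Cubn, and Amn. Genes named for the 3 females that stand apart were chosen after their values were seen. A few genes that this rule names are not reported here.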

Additional observations from a re-analysis of the deposited data

Results flagged for a closer look

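Of 21 combinations of a member and a group of 5 mice, 1 held a library far from the others. Lrpap1 was at 664.4 CPM in LP female 4, the highest of 5 LP females. Its gap to the nearest mouse was 0.778 of the range of the group, above the critical value of 0.710 for 5 samples. Chance alone flags about 1 in 20 groups.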

How the results depend on the processing

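The count of members passing stayed at 0 in each diet comparison under every alternative, and between the sexes at 2 to 3 without any 1 library. It was 1 with the 1.5-fold threshold, 1 in NP mice only, and 5 without the 3 females that stand apart with length and GC offsets. Log2 fold changes of up to 0.34 in size changed sign, none past the threshold in a diet comparison. In males Lrp2 was 0.0020 with no filter (-0.077 to 0.073 without 1 library) and Lrpap1 0.017 with the proximal tubule covariate (-0.11 to 0.028), and without 1 library Dab2 ran from -0.19 to 0.013, Clcn5 from -0.18 to 0.020, and Ocrl from -0.041 to 0.14. In females the proximal tubule covariate gave -0.16 for Lrp2, -0.084 for Cubn, -0.092 for Clcn5, and 0.046 for Lrpap1. Lrpap1 was 0.021 with no filter, 0.030 with offsets, 0.048 without the 3 females, 0.10 without them with offsets, and -0.095 to 0.066 without 1 library, and Amn was 0.085 without the 3 and 0.18 with offsets added. For the difference between the sexes the covariate gave -0.0061 for Lrp2, -0.11 for Cubn, -0.0055 for Ocrl, and 0.082 for Lrpap1. Cubn was -0.017 with offsets and -0.10 to 0.27 without 1 library, and Amn 0.073 without the 3 females with offsets. Lrpap1 was 0.044 with no filter, 0.029 with a mean count of 10, 0.013 with DESeq2 size factors and with the DESeq2 test, 0.071 with offsets, 0.072 without the 3 females, 0.15 without them with offsets, and -0.090 to 0.078 without 1 library. Between the sexes Cubn was -0.16 with the covariate, -0.0032 with offsets, -0.29 without the 3 females, -0.18 without them with offsets, -0.026 in LP mice only, and -0.093 to 0.091 without 1 library. The cause of these changes was not tested. The replicate numbers did not pair the mice (same-numbered deviations correlated at -0.30 to 0.33 in males and -0.61 to -0.39 in females). With the replicate block the count of members passing was 0 in each diet comparison and 3 between the sexes, and the block gave -0.46 for Lrp2 and -0.20 for Cubn in females, -0.052 and -0.13 for the difference between the sexes, and -0.030 for Cubn between the sexes. The 3 NP females limit the precision of the 3 comparisons that use them.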
